A study of Homo sapiens with 4 samples.

Results

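PYCARD encodes ASC, the adaptor protein of inflammasomes, and its promoter was examined here together with those of PYCARD-AS1, PRSS36, PRSS8, TRIM72 and ITGAM, which lie near it on chromosome 16. Chromatin accessibility was measured by ATAC-seq, in which the Tn5 transposase cuts and tags open DNA, in HEK293T cells, an established human embryonic kidney line that expresses the SV40 large T antigen. The 6 genes were picked by name out of the 28775 promoters of the count table, and all 6 passed the filter that left 23407 promoters for the test. The group was chosen by its readout: PYCARD-AS1 was already known to be among the leading promoters that were lower after MORC2 overexpression in these libraries, and the rest were taken as its neighbours. The difference between overexpression and control at these genes is therefore given as a description, with no test.

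The control group (2 libraries) received lipofectamine, a transfection reagent. In the overexpression group (2 libraries), wild-type MORC2 fused to a monomeric enhanced green fluorescent protein was transfected into the same line from a plasmid, on top of the cells' own MORC2. The labels do not mention an empty plasmid for the controls, so the delivery of plasmid DNA and MORC2 itself cannot be told apart. Promoter counts give no check of the MORC2 level made from the plasmid. Libraries held from 3734519 to 10255182 promoter counts, of which the 37 mitochondrial promoters took from 51.9% to 55.6% in control and from 73.8% to 74.7% in overexpression. Median nuclear promoter counts were 98 and 74 for control replicates and 40 and 23 for overexpression replicates, so overexpression values are the less precise ones. With 2 libraries against 2, an exact permutation test cannot give a two-sided p below 0.333. The study calls the replicates of a related ATAC-seq comparison biological, but the labels do not say that these came from separate cultures. The p-values measure only the spread between these libraries. The main fit took that spread from all promoters together, not from each promoter's own replicates.

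ASC carries a pyrin domain and a caspase recruitment domain, and joins sensor proteins such as NLRP3 or AIM2 to caspase-1, which processes interleukin-1β and interleukin-18. Its gene is also known as TMS1, after its silencing by promoter methylation in tumours, and it is used above all in myeloid and epithelial cells. PYCARD-AS1 is a long non-coding RNA transcribed from the opposite strand. PRSS8 encodes prostasin, a membrane-anchored serine protease that activates the epithelial sodium channel, and PRSS36 encodes polyserase-2, a protease with several serine protease domains. TRIM72 encodes MG53, a membrane repair protein of striated muscle, and ITGAM encodes CD11b, the integrin alpha subunit that marks myeloid cells.

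Promoter sequences from 250 bases before to 50 bases after the start site were found for 5 of the 6 genes in a RefSeq table of build GRCh38.p14, on chromosome 16. They are shown for the antisense pair, which had the lower counts after overexpression, and for the muscle and the myeloid gene, which are known from other cell types. PYCARD lies on the minus strand at chr16:31202711-31203010 and PYCARD-AS1 on the plus strand at chr16:31201635-31201934. TRIM72 lies on the plus strand at chr16:31213869-31214168, and ITGAM on the plus strand at chr16:31259725-31260024. Capitals mark GC boxes (GGGCGG) in PYCARD, a TATA box (TATAAA) in PYCARD-AS1, an ETS core (CCGGAAG), the MEF2 motif and an E-box (CAGCTG) in TRIM72, and PU.1 cores (GAGGAA) in ITGAM, each on either strand.
PYCARD: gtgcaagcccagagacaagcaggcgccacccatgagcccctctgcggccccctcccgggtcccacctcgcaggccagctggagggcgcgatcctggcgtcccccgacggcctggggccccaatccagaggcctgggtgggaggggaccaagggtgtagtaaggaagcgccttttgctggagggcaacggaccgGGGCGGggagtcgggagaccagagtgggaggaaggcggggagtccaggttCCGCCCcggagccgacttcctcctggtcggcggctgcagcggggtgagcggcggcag
PYCARD-AS1: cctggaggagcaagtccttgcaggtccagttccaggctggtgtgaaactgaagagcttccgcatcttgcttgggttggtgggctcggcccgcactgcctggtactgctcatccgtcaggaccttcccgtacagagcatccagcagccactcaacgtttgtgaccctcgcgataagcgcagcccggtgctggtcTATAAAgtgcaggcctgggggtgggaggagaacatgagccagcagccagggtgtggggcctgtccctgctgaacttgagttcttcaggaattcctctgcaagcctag
TRIM72: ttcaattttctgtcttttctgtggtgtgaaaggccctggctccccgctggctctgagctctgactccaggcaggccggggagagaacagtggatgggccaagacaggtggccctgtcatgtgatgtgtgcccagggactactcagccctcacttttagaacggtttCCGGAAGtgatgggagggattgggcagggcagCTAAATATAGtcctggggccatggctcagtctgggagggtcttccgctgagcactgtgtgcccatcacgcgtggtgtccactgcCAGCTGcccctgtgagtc
ITGAM: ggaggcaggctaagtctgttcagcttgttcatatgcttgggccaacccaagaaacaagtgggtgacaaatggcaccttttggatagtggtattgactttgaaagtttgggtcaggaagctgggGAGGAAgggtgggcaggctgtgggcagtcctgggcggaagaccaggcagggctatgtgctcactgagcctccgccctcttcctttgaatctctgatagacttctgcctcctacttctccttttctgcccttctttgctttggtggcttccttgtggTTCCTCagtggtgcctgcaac

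The PYCARD promoter was GC-rich, with 72.0% G and C and 23 CpG dinucleotides, against medians of 58.7% and 14 over the 35116 promoters of the table. Relative to the number expected from its C and G content, its CpG ratio was 0.6, against a median of 0.579. That ratio stood at percentile 51.2, so its CpG content was ordinary for its G and C. The PYCARD-AS1 promoter held 10 CpG, TRIM72 held 7, PRSS36 held 5 and ITGAM held 2. PYCARD thus had the most CpG of the 5, and ITGAM the fewest. The 2 GC boxes of PYCARD began 57 and 7 bases before the start site. This motif was found in 44.95% of all promoters, and ITGAM held 2 as well. The TATA box of PYCARD-AS1 began 57 bases before its start, a motif found in 11.53% of promoters. The MEF2 motif, known from muscle genes, was found in TRIM72 and in none of the other 4 sequences, against 2.99% of all promoters. The ETS core was found in 10.26% of promoters, the E-box, which PYCARD also held once, in 17.95%, and the PU.1 core in 27.85%. A CCAAT box (CCAAT), present in 34.61%, occurred once in PYCARD and once in TRIM72. The PU.1 core, named for a myeloid transcription factor, occurred 2 times in ITGAM, 2 times in PYCARD and once in PYCARD-AS1. The ETS and PU.1 cores share the bases GGAA, but no matches overlapped in these sequences. A match is a description of letters, not a bound site.

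In the control cells PYCARD and PYCARD-AS1 had the most accessible of the 6 promoters, and both were lower in each overexpression library. PYCARD (Entrez 29108) had 225 and 182 counts in replicates 1 and 2 of the control, against 39 and 33 in those of the overexpression group. On the scale of CPM (counts relative to the library total after TMM scaling, which sets most promoters level), these were 16.03 and 17.5 in control, against 7.27 and 11.3 after overexpression. Both overexpression libraries lay below both controls, and the overexpression replicates lay further apart than the controls. The means were 16.8 ± 1.04 and 9.29 ± 2.86 (SD, n = 2), so that the overexpression mean was 55.4% of the control mean, a log2 fold change of −0.93 (SE 0.194).

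PYCARD-AS1 (Entrez 100652740) had 260 and 190 counts in control, against 45 and 34 after overexpression. Its CPM was 18.5 and 18.3 in control, against 8.39 and 11.7 after overexpression. Here too the groups did not overlap, and overexpression replicate 1 was the lower one. Group means were 18.4 ± 0.182 and 10.0 ± 2.31 (SD, n = 2), and the log2 fold change was −0.94 (SE 0.185). These were the 2 of 6 promoters with an edgeR adjusted p under 0.05, a threshold passed by 2.47% of all promoters tested in either direction and by 1.30% in the lower direction. Groups that did not overlap, with overexpression lower, were found at 24.9% of all promoters. Since the contrast chose the genes, nothing is read from these counts.

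The difference was larger in overexpression replicate 1 than in replicate 2. At the pooled control level, PYCARD would have had 89.3 counts in overexpression replicate 1, where 39 were found (43.7%; 95% exact Poisson interval of the count from 27.7 to 53.3). In overexpression replicate 2, 48.6 would have been expected and 33 were found (67.9%; interval from 22.7 to 46.3). PYCARD-AS1 reached 45.6% and 63.3% of the control level in the same libraries. Both replicates were thus below the control level at both promoters, replicate 1 more so. Without overexpression replicate 1, the log2 fold changes were −0.57 for PYCARD and −0.67 for PYCARD-AS1, and neither was past the threshold, which 0.473% of all promoters passed in that fit. Without overexpression replicate 2 they were −1.20 and −1.14. Poisson intervals cover counting error only, not the spread between replicates or the error of the control level.

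**Figure D1:**
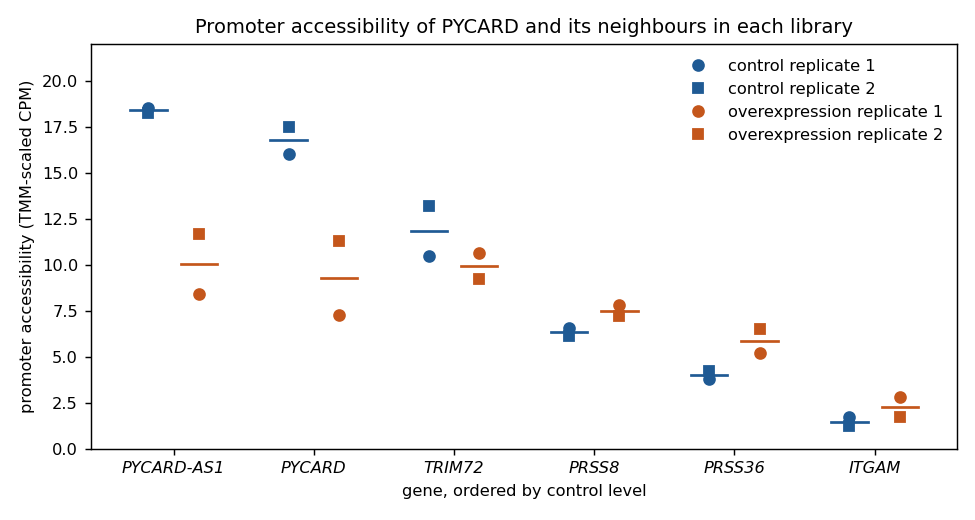
Promoter accessibility (TMM-scaled CPM, linear axis) of the 6 genes in each library. Blue symbols are control and orange symbols overexpression libraries, circles are replicate 1, squares replicate 2, and bars are group means. For PYCARD-AS1 and PYCARD the overexpression libraries lie from 7.27 to 11.7, below the controls at 16.03 to 18.5. The other 4 genes have lower control levels, and on this linear axis their groups lie closer together. Their log2 fold changes were −0.20 (TRIM72), 0.25 (PRSS8), 0.52 (PRSS36) and 0.67 (ITGAM).

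The promoters of PYCARD and PYCARD-AS1 cannot be taken as independent measurements. Their start sites lie 875 bases apart on GRCh38.p14, less than the 2 kb promoter window of the study. Each of the 300-base promoters lies inside the gene body of the other gene. A fragment between the start sites can then be counted for both, and ATAC-seq has no strand to tell them apart. The overlap of the windows on CHM13, where the authors counted, was not checked. The ratio of PYCARD-AS1 to PYCARD counts was 1.16 and 1.04 in control, against 1.15 and 1.03 after overexpression. This ratio needs no scaling, and the groups interleaved. Fragments counted for both promoters would hold it near 1 in any library. It therefore cannot show whether the antisense partners shifted against each other.

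A scaling within the locus kept both overexpression libraries below both controls at PYCARD and PYCARD-AS1. For every 1000 counts at the 19 other promoters among the 20 nearest neighbours of PYCARD in the gene table, PYCARD had 55.7 and 55.4 counts in control, against 25.2 and 40.5 after overexpression. PYCARD-AS1 had 64.4 and 57.8 in control, against 29.1 and 41.7 after overexpression. Measured against the promoters around them, PYCARD was lower by 0.80 and PYCARD-AS1 by 0.81 on the log2 scale. This scaling was chosen after seeing the data and uses the counts that chose the genes. It is a description, and nothing more is read from it. The mitochondrial share and the depth differed between the groups in each library, and their part in the lower values was not tested beyond the fit without mitochondrial promoters, which gave −0.94 and −0.95. In bulk cells, fewer cells with an open promoter and less opening in each cell cannot be told apart.

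The protease genes had lower control levels, and neither had an overexpression library below a control library. PRSS8 (Entrez 5652) had a CPM of 6.55 and 6.15 in control, against 7.83 and 7.20 after overexpression, a log2 fold change of 0.25 (SE 0.231). PRSS36 (Entrez 146547) had 3.78 and 4.23 in control, against 5.22 and 6.51 after overexpression, a log2 fold change of 0.52 (SE 0.274). The counts behind PRSS36 were 53 and 44 in control, but 28 and 19 in overexpression. The muscle gene TRIM72 (Entrez 493829) had a CPM of 10.5 and 13.2 in control, against 10.6 and 9.25 after overexpression, a log2 fold change of −0.20 (SE 0.191). It is the next gene after PYCARD-AS1, and its groups overlapped, as did those of 11765 of the 23407 promoters tested. ITGAM (Entrez 3684) had the fewest counts, 24 and 13 in control, against 15 and 5 after overexpression. Its CPM was 1.71 and 1.25 in control, against 2.80 and 1.71 after overexpression, a log2 fold change of 0.67 (SE 0.424), and its nearest libraries of the 2 groups were almost equal. PRSS8, PRSS36 and ITGAM were the 3 of 6 whose overexpression libraries lay above the controls, as did 24.8% of all promoters. None of these 3, nor TRIM72, passed the threshold. With library totals, which shift the median of all promoters to −0.78, the log2 fold changes of PRSS36, PRSS8 and ITGAM turned to −0.28, −0.54 and −0.13, still above that median.

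In control, the order of mean CPM was PYCARD-AS1 (18.4), PYCARD (16.8), TRIM72 (11.8), PRSS8 (6.35), PRSS36 (4.00) and ITGAM (1.48). All windows are of like width, but no other difference between the windows was corrected for, and the antisense pair may share fragments. The order is therefore a description. Among all promoters tested, PYCARD-AS1 stood at percentile 65.8 of the control level, PYCARD at 62.0, TRIM72 at 49.4, PRSS8 at 36.9, PRSS36 at 30.2 and ITGAM at 10.2. No neighbours in this order had overlapping control libraries. In overexpression replicate 1, TRIM72 (10.6) stood above PYCARD-AS1 (8.39) and PYCARD (7.27), while in replicate 2 it stood below both. The lead of the antisense pair over TRIM72 in control was thus not found in both overexpression libraries.

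Within the gene order, the log2 fold changes of the antisense pair were lower than those of TRIM72 and PYDC1 after it. Because this contrast chose the pair, nothing is read from that difference. PYDC1, a pyrin-only inhibitor of inflammasomes that stands between TRIM72 and ITGAM, had 4.27 and 5.48 in control, against 4.66 and 4.45 after overexpression (log2 fold change −0.07, SE 0.287). TRIM72 and PYDC1, the next genes after the antisense pair, both showed overlapping groups, as did 11765 of the 23407 promoters tested. Of the 19 other promoters in the neighbourhood, 0 passed the edgeR threshold, 2 had an unadjusted p under 0.05, 8 were higher and 11 lower under TMM scaling, and their median log2 fold change was −0.065. The 2 were BCKDK, a kinase of branched-chain amino acid breakdown, with a log2 fold change of 0.41 (SE 0.184), and ITGAX, which encodes the integrin CD11c, with 0.60 (SE 0.294). An unadjusted p under 0.05 was found at 17.2% of all promoters.

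**Figure D2:**
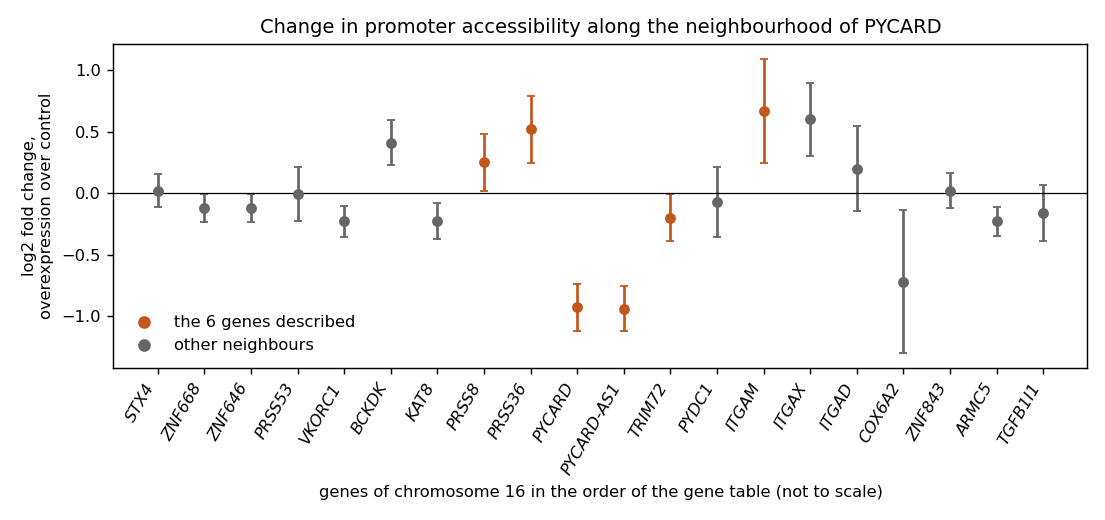
Log2 fold change of promoter accessibility, overexpression over control, for PYCARD and its neighbours, in gene order on the x axis (not to scale, with 1 neighbour left out). Points are estimates of the edgeR fit, bars are standard errors, and orange marks the 6 genes. PYCARD and PYCARD-AS1 lie at −0.93 and −0.94, while TRIM72 and PYDC1 after them lie at −0.20 and −0.07. The contrast shown is the one that chose the pair.

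Log2 fold changes in these libraries depended on abundance, so each gene was set beside promoters of like abundance, within 0.25 of its mean log2 CPM. For PYCARD, the median over 3105 such promoters was −0.036 (SD 0.194), and 2 of them lay below PYCARD. For PYCARD-AS1, the median over 3372 promoters was −0.049 (SD 0.187), and 0 lay below it. For the antisense pair this restates the contrast that chose the genes, so nothing is read from it. The other 4 lay within their class. The median was 0.39 (SD 0.502) for promoters like ITGAM, 0.26 (SD 0.341) for those like PRSS36, 0.13 (SD 0.291) for those like PRSS8 and 0.012 (SD 0.216) for those like TRIM72. The higher values of ITGAM, PRSS36 and PRSS8 therefore differed from those of their class by less than its SD.

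The lower values of PYCARD and PYCARD-AS1 kept their direction in all alternatives, from −1.72 to −0.57 and from −1.73 to −0.67. The lowest values came from library totals, which put the median of all promoters at −0.78. All alternatives use the libraries whose contrast chose the pair, so nothing is read from the kept direction. DESeq2 without independent filtering called neither, and 0.222% of all promoters. With loess scaling on abundance the values of the pair were −0.91 and −0.91, while PRSS36 went to 0.25, PRSS8 to 0.10 and ITGAM to 0.25.

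**Figure D3:**
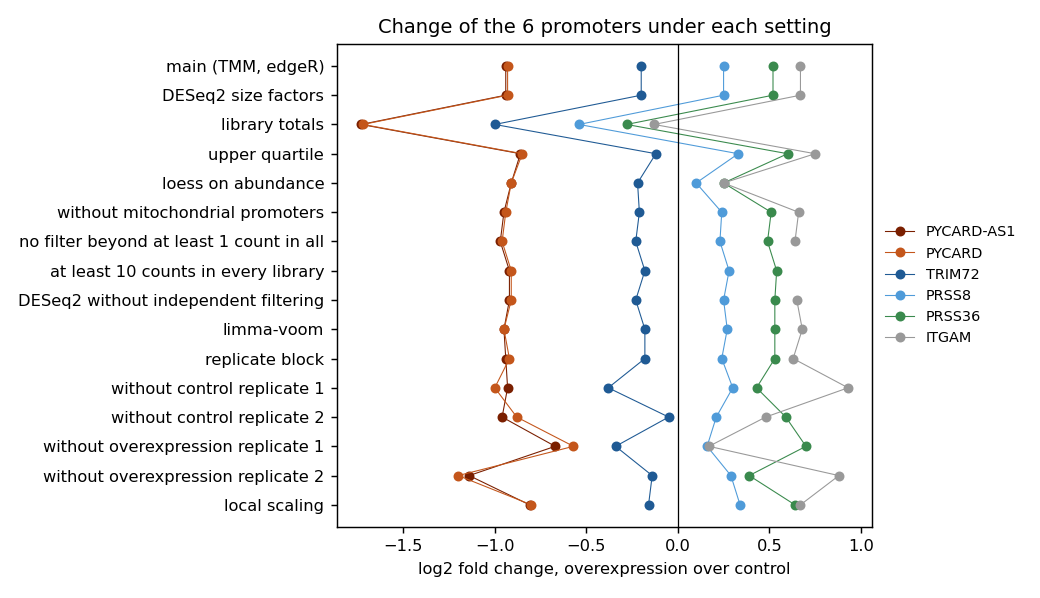
Log2 fold change, overexpression over control, of the 6 promoters (colours) under each setting of scaling, filter, test and left-out replicate (rows). PYCARD and PYCARD-AS1 stay left of 0 in every row, closest to it without overexpression replicate 1. PRSS36, PRSS8 and ITGAM cross to the left with library totals. Every row uses the libraries whose contrast chose the pair.

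**Figure D4:**
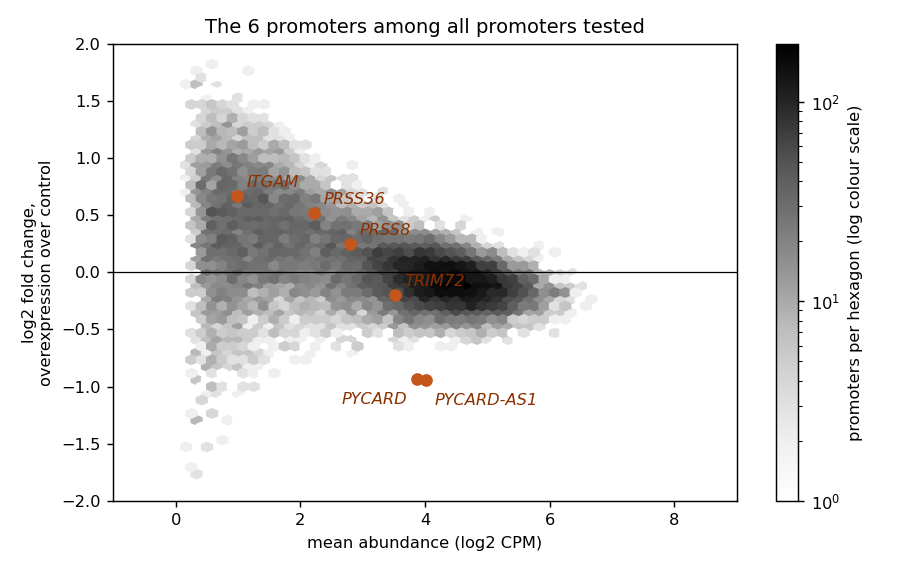
Log2 fold change, overexpression over control, against mean abundance (log2 CPM) for all promoters tested; grey hexagons are shaded by the number of promoters on a log scale, and 44 promoters fall outside the axes. Orange points are the 6 genes: PYCARD and PYCARD-AS1 lie below the cloud, and the other 4 lie within it.

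The other genes of the inflammasome pathway were examined as a list of 34, of which 23 passed the filter. Of these 23, 0 passed the edgeR threshold, against 2.47% of all promoters, and 0 had an unadjusted p under 0.05, against 17.2%. In DESeq2 without independent filtering 0 passed, against 0.222% of all promoters. Under TMM scaling their log2 fold changes ran from −0.37 to 0.69 with a median of 0.20, against 0.0099 over all promoters tested. Promoters of like abundance had medians of 0.40 for NLRP3, 0.38 for CASP1, 0.39 for IL1B and 0.29 for GSDMD. Those medians were −0.14 for NEK7, −0.13 for DPP9 and −0.10 for DPP8. The median of the list is therefore not read as a rise. With library totals, 9 of the 23 were called, all lower, as were 69.5% of all promoters, so nothing is read from these calls. Among the sensors, NLRP3 had 20 and 24 counts in control, against 9 and 5 after overexpression (log2 fold change −0.09, SE 0.465). AIM2, a sensor of cytosolic DNA, did not pass the filter, with 23 and 6 counts in control, against 9 and 3 after overexpression. CASP1, the effector caspase, had 17 and 12 counts in control, against 5 and 6 after overexpression (log2 fold change 0.17, SE 0.533). Each of these 3 promoters thus had at most 24 counts in any library.

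Among the substrates, IL1B had 21 and 11 counts in control, against 5 and 9 after overexpression (log2 fold change 0.38, SE 0.484). IL18 did not pass the filter, with 15 and 6 counts in control, against 7 and 1 after overexpression. GSDMD, the pore-forming gasdermin cut by caspase-1, had 49 and 47 counts in control, against 20 and 20 after overexpression (log2 fold change 0.30, SE 0.289). In control, PYCARD (mean CPM 16.8) thus had more counts than these 6 genes, but other genes of the list were more accessible, such as NEK7, a kinase that binds NLRP3 (37.3), and the protease genes DPP9 (33.1) and DPP8 (25.8).

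**Figure D5:**
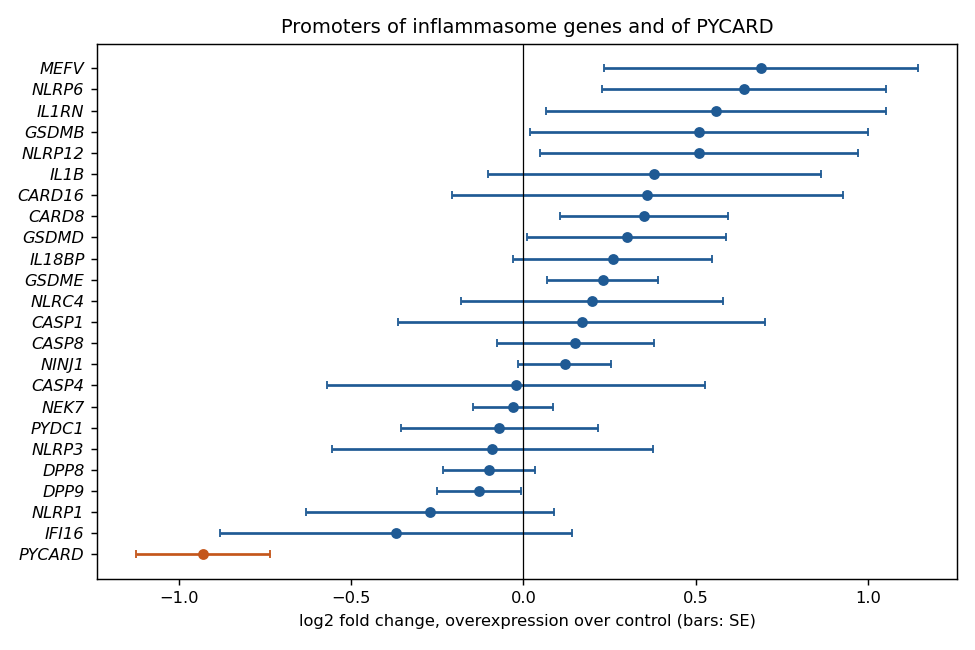
Log2 fold change, overexpression over control, of the 23 inflammasome promoters tested (blue) and of PYCARD (orange), sorted by value, with standard errors as bars. The blue points run from −0.37 to 0.69, and PYCARD lies at −0.93.

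Genes whose products act with those of the neighbours of PYCARD were examined as a list of 21, of which 20 were tested. Again 0 passed the edgeR threshold and 0 passed in DESeq2 without independent filtering, against 2.47% and 0.222% of all promoters. An edgeR unadjusted p under 0.05 was found at 3, all higher, against 17.2% of all promoters. They were SCNN1B, a subunit of the sodium channel that prostasin activates (log2 fold change 0.65, SE 0.288), ITGAX (0.60, SE 0.294) and CAVIN1, a caveolar coat protein that acts in membrane repair (0.39, SE 0.191). Their edgeR adjusted p-values were 0.218, 0.274 and 0.266. Promoters of like abundance had medians of 0.31 (SD 0.353), 0.32 (SD 0.357) and 0.042 (SD 0.228), in the same order. Nothing is read from these 3 values. The median of the 20 was 0.14, and 12 of the 20 were called lower with library totals, against 69.5% of all promoters. ITGB2, the beta subunit that pairs with CD11b, had a log2 fold change of 0.03 (SE 0.242).

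The promoters whose profile over the 4 libraries was most like that of PYCARD were sought among 6106 promoters of like abundance, by the Euclidean distance of centred log2 CPM. PYCARD-AS1 was the nearest (distance 0.152), which may share counts with it. It was followed by ACP4, an acid phosphatase gene of chromosome 19 (0.282), FAM86FP, a pseudogene of chromosome 12 (0.289), ADNP2 of chromosome 18 (0.343) and ABRAXAS1, a DNA repair gene of chromosome 4 (0.369). The log2 fold changes of these 4 were −1.09, −0.82, −0.65 and −0.59. The match was made on the same 4 libraries, so values below 0 follow from it and nothing is read from them. The reads of FAM86FP can be shared with near-identical copies of its family.

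The identity of the cells was checked at marker promoters in control. All 9 HEK293T markers passed the filter, with VIM and EYA1 the highest and the lowest. VIM stood at percentile 97.9, while PAX2 stood at 28.5 and EYA1 at 14.2. Of the 9 blood and myeloid markers 8 passed, and PTPRC, which defines leukocytes, did not, with 7 and 5 control counts. LYZ stood at percentile 4.1, and SPI1, which encodes PU.1, at 28.8, but CD68 stood at 83.3. ITGAM (percentile 10.2) thus lay with the blood markers of low accessibility, and PYCARD (62.0) did not.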

How the data were processed

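ATAC-seq promoter counts of 4 HEK293T libraries were analysed. The authors trimmed the reads, aligned them to CHM13 with Bowtie2, kept proper pairs with a mapping quality of at least 30 and removed duplicates with Picard. Fragments were counted by midpoint, as stated for the study's windows, and promoters spanned 2 kb around start sites. The values deposited by the authors are raw counts, a row for each Entrez identifier. A Tn5 shift was not given in the sources used here. Peak lists on CHM13 were not used, since no annotation of that build was at hand.

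Names and gene order came from RefSeq, GRCh38.p14 (28763 of 28775 identifiers matched). Counts were filtered (filterByExpr), TMM-scaled and tested two-sided across all promoters by edgeR 4.0.16 quasi-likelihood F-tests in R 4.3.3, with no covariate and Benjamini-Hochberg adjustment at 0.05. The script was tested on simulated data. Replicates differed by more than sampling noise (chi-square per degree of freedom 1.25 in control, 1.12 in overexpression). The edgeR fit had infinite prior degrees of freedom for the spread. Its SEs and p-values thus do not reflect how far the replicates of a single promoter lay apart. Alternatives used DESeq2 1.42.0, limma 3.58.1, other scalings and filters, and left out single libraries.

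Named were the 6 genes, neighbours between them or with p under 0.05, list genes with p under 0.05, 6 core inflammasome genes and the 5 profiles most like PYCARD. ITGB2 and the marker genes named were picked after their values were seen, as were NEK7, DPP9 and DPP8. Members and lists were chosen with earlier results of these data known. A neighbouring gene and a marker gene are not reported here by name, and the neighbour is left out of the plot.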

Additional observations from a re-analysis of the deposited data

How the results depend on the processing

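The count of the 6 promoters past the threshold, 2, was the same under DESeq2 size factors, upper-quartile and loess scaling, both filters and limma-voom. It was also the same without mitochondrial promoters. These settings called from 54 (loess scaling) to 719 (limma-voom) of all promoters, against 577 in the main fit. The contrast chose the pair, so nothing is read from the unchanged count. The count was 4, all lower, with library totals, a scaling that includes mitochondrial counts and called 69.5% of all promoters lower. It was 0 in DESeq2 without independent filtering, which called 0.222% of all promoters. That setting was chosen after seeing the data, as was the scaling by neighbouring promoters. With independent filtering, DESeq2 gave no adjusted p for any of the 6 or for the partner list. Leaving out single libraries gave log2 fold changes from −1.20 to −0.57 for PYCARD and from −1.14 to −0.67 for PYCARD-AS1. The values closest to 0 came without overexpression replicate 1. A library left alone in its group was assumed to vary like the other group. With library totals PRSS36, PRSS8 and ITGAM reversed to −0.28, −0.54 and −0.13, and calls in the inflammasome and partner lists went from 0 to 9 and 12 while those over all promoters went from 577 to 16319. Both lists had 0 calls in each other alternative that gave them adjusted p-values, libraries left out included. ITGAM gave no value with at least 10 counts in every library. The correlation of deviations from the group means between libraries sharing a number was 0.0503, so replicate numbers were treated as names only. With the replicate block 2 of the 6 promoters and 488 of all promoters were past the threshold, against 2 and 577 without it. Depth limits ITGAM most among the 6, with 5 counts in overexpression replicate 2.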
